A study of Mus musculus with 12 samples.

Results

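Maturing neutrophils store a late set of granule and cytosolic proteins, and 10 mouse genes for them are described here: S100a8, S100a9, Camp, Ngp, Ltf, Lcn2, Chil3, Mmp8, Mmp9 and Mmp25. Each was found by its symbol in the probe annotation of the array, and each had 1 row. All 10 lay among the 16860 genes tested, of 22180 genes that had a row with 1 symbol. Their rows were read across 4 groups of mouse cells, with 3 arrays in each group.

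The groups were Tet2-/- cells at passage 10, Tet2fl/fl cells at passage 10, Tet2-/- cells at passage 2 and Tet2fl/fl cells at passage 2. All were bone marrow cells enriched for Kit, from animals with floxed Tet2 alleles and CreER, a Cre recombinase that tamoxifen switches on. All carried a retrovirus for AML1-ETO, a leukaemia fusion protein, with GFP, and grew in SCF, IL-3 and IL-6 after 3 rounds of replating. TET2, the product of Tet2, oxidises the methyl group of methylated cytosines. The Tet2-/- cells had been given 200 nM 4-hydroxytamoxifen (4-OHT) for 4 days, over 2 passages of 2 days each, and the Tet2fl/fl cells ethanol. Loss of Tet2 and exposure to 4-OHT with active Cre therefore cannot be told apart here. RNA came from GFP-positive cells sorted as lacking CD11b and Gr1 and bearing CD16/32. The strain, the age and number of animals, and what the replicates are (cultures or repeats of one) were not given in the sources used here; p-values therefore reflect only how these samples vary, which may be technical.

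Neutrophils fill their granules in waves. Primary granules with myeloperoxidase and elastase are made at the promyelocyte stage, specific granules with lactoferrin, cathelicidin and collagenase at the myelocyte and metamyelocyte stages, and gelatinase granules last, while the S100a8 and S100a9 proteins fill the cytosol. C/EBP factors, C/EBPε above all, switch on the specific granule genes. AML1-ETO is known to hold myeloid cells at an immature stage and to lower C/EBPα.

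Array values are log2 signals normalized by the authors, and values of different genes are not compared with each other, since each has its own probes. The array medians lay between 5.57 and 5.68. Tet2 read 9.92, 9.64 and 9.93 on replicates 1, 2 and 3 of the Tet2-/- cells at passage 10, against 9.91, 9.80 and 9.93 in Tet2fl/fl cells, and 9.97, 9.89 and 9.98 in Tet2-/- cells at passage 2, against 9.94, 9.89 and 10.08 in Tet2fl/fl cells; its 1 value covers the whole gene and does not check the deletion. Of the sorting markers, Itgam (CD11b) averaged a genotype difference of 0.16 ± 0.23 (adjusted p = 0.814, and 0.74 with the block) and Fcgr3 (CD16) of 0.04 ± 0.08 (adjusted p = 0.874, and 0.783 with the block). Ly6g, the neutrophil part of the Gr1 epitope, read 6.34, 7.61 and 6.92 in Tet2-/- cells at passage 10, against 5.54, 5.61 and 5.76 in Tet2fl/fl cells (1.32 ± 0.48, adjusted p = 0.338, and 0.0887 with the block). At passage 2 Ly6g read 5.06, 6.32 and 6.04 in Tet2-/- cells, against 4.77, 5.60 and 6.80 in Tet2fl/fl cells. In Tet2-/- cells Ly6g was thus higher at passage 10 in every same-numbered pair, by 1.15 on average, and did not pass in either fit. Same-numbered arrays of different groups deviated together, as described under processing, so each test is given without and with the replicate number as a block wherever that changes a call. One array stood apart: replicate 2 of the Tet2fl/fl cells at passage 10 read 8.27 for Elane and 8.56 for Cebpe, against 11.63 and 10.70, and 10.53 and 10.28, on the other arrays of its group. The arrays hold RNA of many cells, so fewer cells of a type and less RNA per cell cannot be told apart.

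Promoter windows are shown for the 5 genes that were lower at passage 10 in the fit with the block, S100a8, S100a9, Ngp, Chil3 and Mmp8, and for Mmp25, which differed by genotype. Each window runs from 250 bases before to 50 after the gene's start, 5′ to 3′ on the gene's strand, from RefSeq on build GRCm38.p6: S100a8 at chr3:90668821-90669120 (plus strand), S100a9 at chr3:90695672-90695971 (minus), Ngp at chr9:110419558-110419857 (plus), Chil3 at chr3:106167515-106167814 (minus), Mmp8 at chr9:7558179-7558478 (plus) and Mmp25 at chr17:23645220-23645519 (minus). Camp, Ngp, Ltf and Mmp8 lie on chromosome 9, S100a8, S100a9 and Chil3 on chromosome 3, Lcn2 and Mmp9 on chromosome 2 and Mmp25 on chromosome 17. Capitals mark the C/EBP core TTGCNNAA, the RUNX motif TGTGGT and the PU.1 motif GAGGAAG, sought on both strands; no match overlaps another.
S100a8: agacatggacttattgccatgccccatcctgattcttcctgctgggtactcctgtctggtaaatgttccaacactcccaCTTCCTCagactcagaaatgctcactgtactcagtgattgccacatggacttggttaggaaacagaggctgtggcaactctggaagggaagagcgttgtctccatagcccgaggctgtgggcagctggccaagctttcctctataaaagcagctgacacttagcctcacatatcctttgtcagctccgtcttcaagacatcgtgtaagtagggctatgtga
S100a9: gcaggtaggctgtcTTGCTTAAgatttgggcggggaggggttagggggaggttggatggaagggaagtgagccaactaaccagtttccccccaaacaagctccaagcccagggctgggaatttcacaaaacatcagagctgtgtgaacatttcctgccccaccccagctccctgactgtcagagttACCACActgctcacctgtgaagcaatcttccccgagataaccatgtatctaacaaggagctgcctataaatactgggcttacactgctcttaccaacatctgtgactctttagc
Ngp: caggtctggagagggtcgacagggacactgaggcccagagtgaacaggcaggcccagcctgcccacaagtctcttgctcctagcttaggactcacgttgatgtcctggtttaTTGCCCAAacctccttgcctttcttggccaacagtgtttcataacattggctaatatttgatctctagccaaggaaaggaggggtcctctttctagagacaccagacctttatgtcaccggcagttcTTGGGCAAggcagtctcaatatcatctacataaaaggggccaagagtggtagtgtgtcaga
Chil3: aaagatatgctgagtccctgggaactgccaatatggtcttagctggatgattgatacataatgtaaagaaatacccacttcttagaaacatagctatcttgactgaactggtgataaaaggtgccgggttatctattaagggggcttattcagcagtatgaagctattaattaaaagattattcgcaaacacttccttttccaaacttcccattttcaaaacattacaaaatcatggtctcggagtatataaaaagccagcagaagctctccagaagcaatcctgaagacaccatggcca
Mmp8: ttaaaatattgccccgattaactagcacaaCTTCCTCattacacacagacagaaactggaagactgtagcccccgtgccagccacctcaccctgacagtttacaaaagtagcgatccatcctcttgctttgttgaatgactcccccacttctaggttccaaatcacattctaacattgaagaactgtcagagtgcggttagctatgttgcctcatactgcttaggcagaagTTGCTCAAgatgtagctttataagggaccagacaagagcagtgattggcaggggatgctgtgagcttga
Mmp25: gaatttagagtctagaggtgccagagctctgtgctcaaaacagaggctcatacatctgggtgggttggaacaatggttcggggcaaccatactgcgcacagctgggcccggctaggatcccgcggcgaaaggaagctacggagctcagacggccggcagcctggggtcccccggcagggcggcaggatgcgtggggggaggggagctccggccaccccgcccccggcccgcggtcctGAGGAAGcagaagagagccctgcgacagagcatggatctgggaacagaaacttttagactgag
Of the 9 windows found for the 10 genes, 5 held the C/EBP core (S100a9, Ngp, Ltf, Lcn2 and Mmp8), which 10.8% of all 32851 windows of the same length held. The PU.1 motif was in 4 of 9 (S100a8, Lcn2, Mmp8 and Mmp25), against 13.6% of all windows, and the RUNX motif in 2 of 9 (S100a9 and Ltf), against 16.8%. The letters TATAAA, not capitalised, were in 4 of 9 (S100a8, S100a9, Chil3 and Mmp8), against 13.6%. Relative to the gene's start, the match began at base -30 in S100a8, 1 in S100a9 and -3 in Chil3. In Mmp8 it began at -3 and lay on the other strand. Ngp held the C/EBP core at 2 places, and Chil3 held none of the 3 capitalised motifs. Windows of 8 genes held 2 to 4 CG dinucleotides, the pair of bases that DNA methylation acts on, whereas Mmp25 held 18; the median of all windows was 7. A match describes letters only and is not a binding site. Mmp9 is named without a window.

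With passage, the late granule genes that were lower were both S100 genes, the granule genes Ngp and Mmp8, and Chil3. In Tet2-/- cells these 5 genes passed as lower at passage 10 in the fit with the replicate block, with log2 differences from -1.22 to -2.72, and the other 5 did not pass. Without the block none of the 10 passed there (adjusted p = 0.079 to 0.910). In Tet2fl/fl cells all 10 differences were negative (without the array that stood apart, 7 in the fit without the block and 8 with it), and none passed in either fit. Of all 16860 genes, 7097 had a negative difference there. The smallest of the 10 were close to 0, -0.02 for Lcn2 and -0.06 for Mmp9. Averaged over both genotypes, Ngp passed without the block, and the same 5 genes passed with it.

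**Figure D1:**
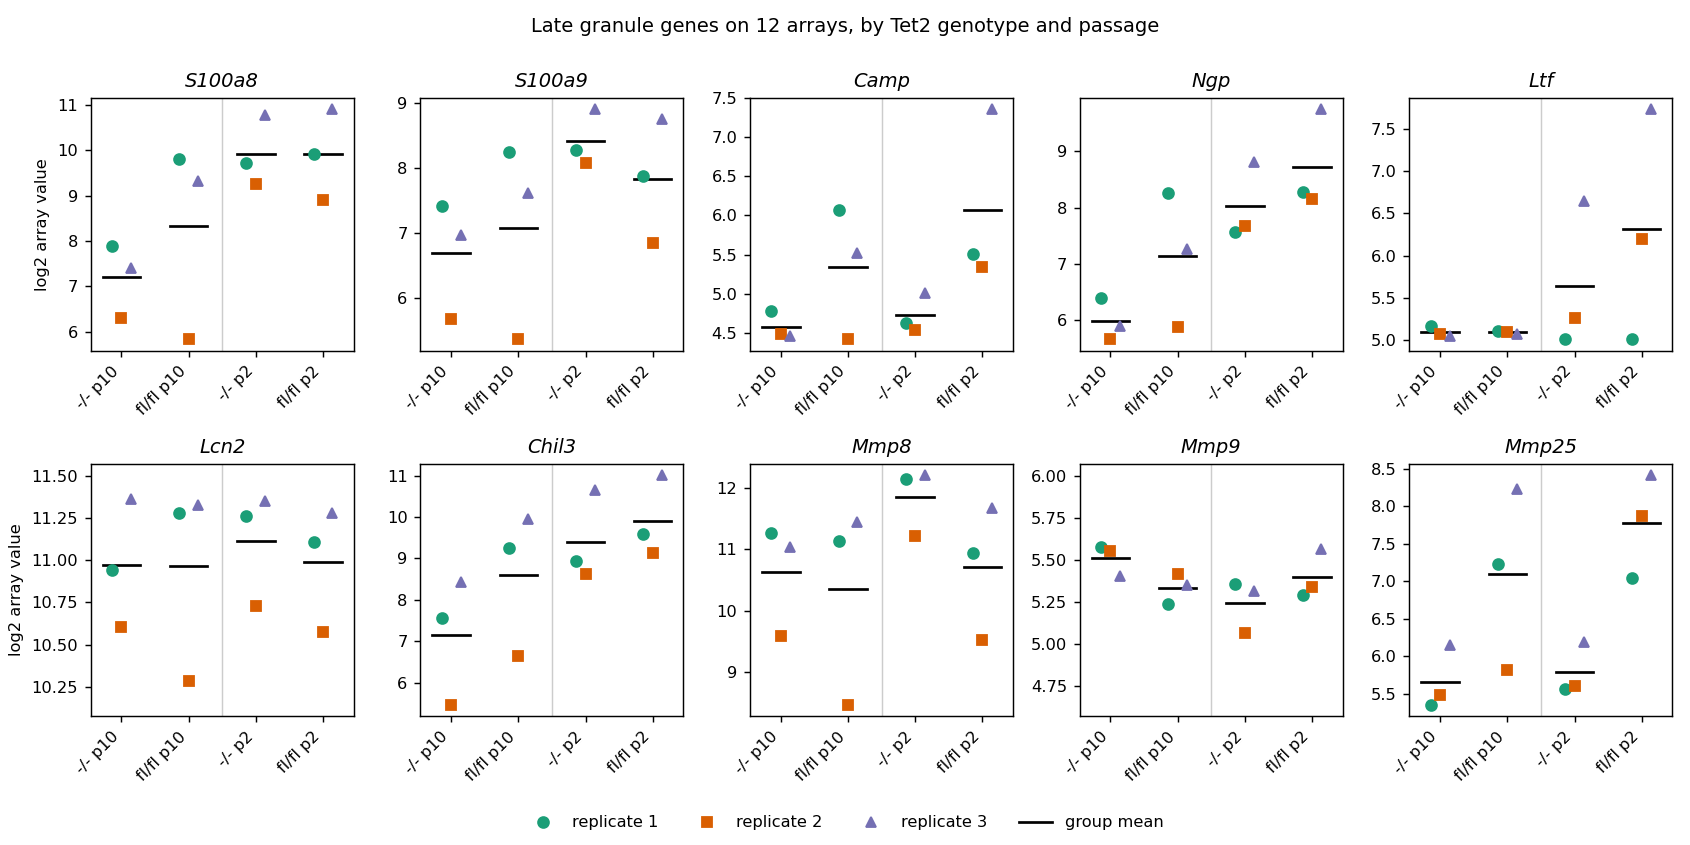
Log2 array values of the 10 late granule genes (y axis, own range for each gene) on 12 arrays in 4 groups (x axis). Points are arrays, shaped by replicate number, and bars are means of 3. S100a8 lies at or below 7.90 on the 3 Tet2-/- arrays of passage 10 and at or above 9.27 on the 3 of passage 2, and Mmp25 is lower in Tet2-/- than in Tet2fl/fl cells at passage 2 with no overlap.

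S100a8 and S100a9 encode the subunits of calprotectin, a protein that binds calcium and zinc and makes up much of the neutrophil cytosol. S100a8 read 7.90, 6.31 and 7.42 on the Tet2-/- arrays of passage 10, against 9.73, 9.27 and 10.78 at passage 2, for replicates 1, 2 and 3, the order kept throughout. All 3 later arrays lay below all 3 earlier ones. The Tet2fl/fl arrays read 9.82, 5.84 and 9.33 at passage 10, against 9.92, 8.91 and 10.90 at passage 2, where replicate 2 of passage 10 lay far below the rest and the replicate 1 difference was -0.10. The difference was -2.72 ± 0.91 in Tet2-/- cells, a 6.58-fold lower signal (adjusted p = 0.117, and 0.0208 with the block), and -1.58 ± 0.91 in Tet2fl/fl cells (adjusted p = 0.562, and 0.249 with the block).

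S100a9 gave 7.43, 5.68 and 6.98 in Tet2-/- cells at passage 10, against 8.29, 8.08 and 8.90 at passage 2. The later arrays again lay below the earlier ones without overlap. S100a9 in Tet2fl/fl cells gave 8.25, 5.37 and 7.62 at passage 10, against 7.89, 6.84 and 8.75 at passage 2, and the groups overlapped, with replicate 1 higher at the later passage. The S100a9 difference was -1.73 ± 0.71 in Tet2-/- cells (adjusted p = 0.187, and 0.0293 with the block) and -0.75 ± 0.71 in Tet2fl/fl cells (adjusted p = 0.724, and 0.424 with the block).

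Ngp encodes neutrophilic granule protein, a mouse granule protein related to the cathelicidins. It read 6.40, 5.66 and 5.90 in Tet2-/- cells at passage 10, against 7.57, 7.68 and 8.82 at passage 2, with no overlap. The Tet2fl/fl values were 8.26, 5.89 and 7.27 at passage 10, against 8.27, 8.15 and 9.74 at passage 2, with replicate 1 nearly the same in both (8.26 and 8.27) and replicates 2 and 3 lower at passage 10. The difference was -2.03 ± 0.58 in Tet2-/- cells (adjusted p = 0.079, and 0.0293 with the block) and -1.58 ± 0.58 in Tet2fl/fl cells (adjusted p = 0.431, and 0.202 with the block). Averaged over both genotypes it was -1.81 ± 0.41 (adjusted p = 0.0275, and 0.00926 with the block), a 3.5-fold lower signal at passage 10, lower in 6 of 6 pairs of same-numbered arrays. Without the block this call ended when any of 6 of the 12 arrays was left out: replicate 3 of each of the 4 groups, replicate 1 of Tet2-/- passage 2 or replicate 2 of Tet2-/- passage 10 (adjusted p = 0.0503 to 0.0671). With the block it passed without any 1 array (adjusted p = 0.00248 to 0.0307).

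Chil3 encodes Ym1, a chitinase-like lectin that mouse neutrophil precursors and some macrophages make. Its values were 7.56, 5.46 and 8.43 in Tet2-/- cells at passage 10, against 8.93, 8.62 and 10.66 at passage 2, without overlap of the groups. Among Tet2fl/fl arrays they were 9.25, 6.63 and 9.95 at passage 10, against 9.59, 9.14 and 11.01 at passage 2, lower in every same-numbered pair but with overlapping groups. The difference was -2.25 ± 0.94 in Tet2-/- cells (adjusted p = 0.198, and 0.0129 with the block) and -1.30 ± 0.94 in Tet2fl/fl cells (adjusted p = 0.643, and 0.199 with the block). Chil4, a close relative, lay below the filter with a mean of 3.29, and whether its RNA reaches the Chil3 probes was not tested.

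Mmp8 encodes neutrophil collagenase of the specific granules. Its signal was 11.27, 9.59 and 11.03 in Tet2-/- cells at passage 10, against 12.14, 11.21 and 12.20 at passage 2. Replicate 1 of passage 10 exceeded replicate 2 of the earlier one, so the groups overlapped, although each pair was lower at passage 10. The difference of -1.22 ± 0.77 passed only with the block (adjusted p = 0.382, and 0.0458 with the block). In Tet2fl/fl cells Mmp8 read 11.13, 8.47 and 11.45 at passage 10, against 10.94, 9.53 and 11.67 at passage 2, a difference of -0.36 ± 0.77 (adjusted p = 0.891, and 0.631 with the block).

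Camp, Ltf, Lcn2, Mmp9 and Mmp25 did not pass for passage in either genotype or fit. Ltf encodes lactoferrin, the iron-binding protein of specific granules. It read 5.17, 5.07 and 5.05 in Tet2-/- cells at passage 10, against 5.01, 5.26 and 6.65 at passage 2. In Tet2fl/fl cells it read 5.11, 5.10 and 5.08 at passage 10, against 5.01, 6.19 and 7.73 at passage 2. Replicate 3 of both genotypes, and replicate 2 of the Tet2fl/fl cells, carried the higher values at passage 2, while replicate 1 was near 5 in all 4 groups (passage average -0.88 ± 0.40, adjusted p = 0.183, and 0.0954 with the block). Lcn2 encodes lipocalin 2, which binds bacterial iron carriers; its 12 values spanned 10.28 to 11.36 and the passage average was -0.08 ± 0.21 (adjusted p = 0.826, and 0.506 with the block). Mmp9, the gelatinase of the last granules, ranged from 5.07 to 5.58 over the 12 arrays. It was the 1 member with a positive passage difference in Tet2-/- cells, 0.26 ± 0.10 (adjusted p = 0.175, and 0.161 with the block), with all 3 passage 10 arrays above all 3 of passage 2. Most values of Camp, Ltf and Mmp9 lie near or below the array median, and no call of detection above background was used.

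Read against all genes, the passage counts were as follows. In Tet2-/- cells limma's test without the block passed 0 of 10 members (5 were under 0.05 before adjustment, called unadjusted from here on, as were 21.6% of genes), where 2.98% of genes passed. With the block 5 of 10 passed (6 unadjusted, against 26% of genes), all lower, where 7.94% of genes passed and 4.68% passed as lower. Among Tet2fl/fl arrays limma's test passed 0 of 10 without the block (1 unadjusted, against 10.2% of genes), where 0% of genes passed, and 0 of 10 with it (4 unadjusted, against 14%), where 0.0415% passed. For the average over genotypes 1 of 10 passed without the block (5 unadjusted, against 26.8% of genes), as lower, where 7.77% of genes passed and 4.52% passed as lower, and 5 passed with it (6 unadjusted, against 31.5%), where 13.2% passed and 7.28% passed as lower.

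Groups without overlap were found in Tet2-/- cells for 4 members that were lower at passage 10, S100a8, S100a9, Ngp and Chil3, and for 1 that was higher, Mmp9, against 12.9% and 15.4% of all genes. In every same-numbered pair, 6 members were lower in Tet2-/- cells (21% of genes) and 3 in Tet2fl/fl cells (14% of genes); those 3, S100a8, Ngp and Chil3, were thus lower in 6 of 6 pairs, as were 8.43% of genes. The median member difference was -0.88 in Tet2-/- cells and -0.74 in Tet2fl/fl cells, beside 0.04 and 0.03 for all genes tested. With the block, leaving out 1 array left 0 to 5 members passing in Tet2-/- cells. None passed without replicate 3 of Tet2-/- passage 2 or without replicate 2 or 3 of Tet2-/- passage 10, and Chil3 alone passed without replicate 2 of Tet2-/- passage 2 or replicate 1 of Tet2-/- passage 10. Without replicate 1 of Tet2-/- passage 2, S100a8 and Chil3 passed. Leaving out 1 Tet2fl/fl array left 4 (an array of passage 2; Mmp8 was lost) or 5 (an array of passage 10). For the average over genotypes 3 to 6 members passed in the same way, and S100a8, Ngp and Chil3 passed each time; 3 passed without replicate 3 of Tet2fl/fl passage 2 or of Tet2-/- passage 10.

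The array that stood apart, replicate 2 of the Tet2fl/fl cells at passage 10, carried much of the passage difference in Tet2fl/fl cells. Without it the difference there was -0.34 for S100a8 in the fit without the block and -0.76 with it, -0.32 and -0.86 for Chil3, and -0.96 and -1.16 for Ngp. Mmp8 (0.57 without and 0.10 with the block) and Lcn2 (0.32 and 0.12) turned to the other sign in both fits, and S100a9 only in the fit without the block (0.11, and -0.28 with it). None of the 10 passed in either fit, and the median became -0.19 without and -0.36 with the block. In Tet2-/- cells S100a8 then passed without the block (adjusted p = 0.0422). For genotype at passage 10 the median became -1.23 without and -0.95 with the block, and Mmp8, at 0.28 with all arrays, turned to -0.66 and -0.18. The mean over the 10 members was 6.32 on the array left out. It was nearly as low, 6.39, on replicate 2 of the Tet2-/- cells at passage 10, which was kept. The fit without the block thus compared genotypes with unbalanced replicate numbers.

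**Figure D2:**
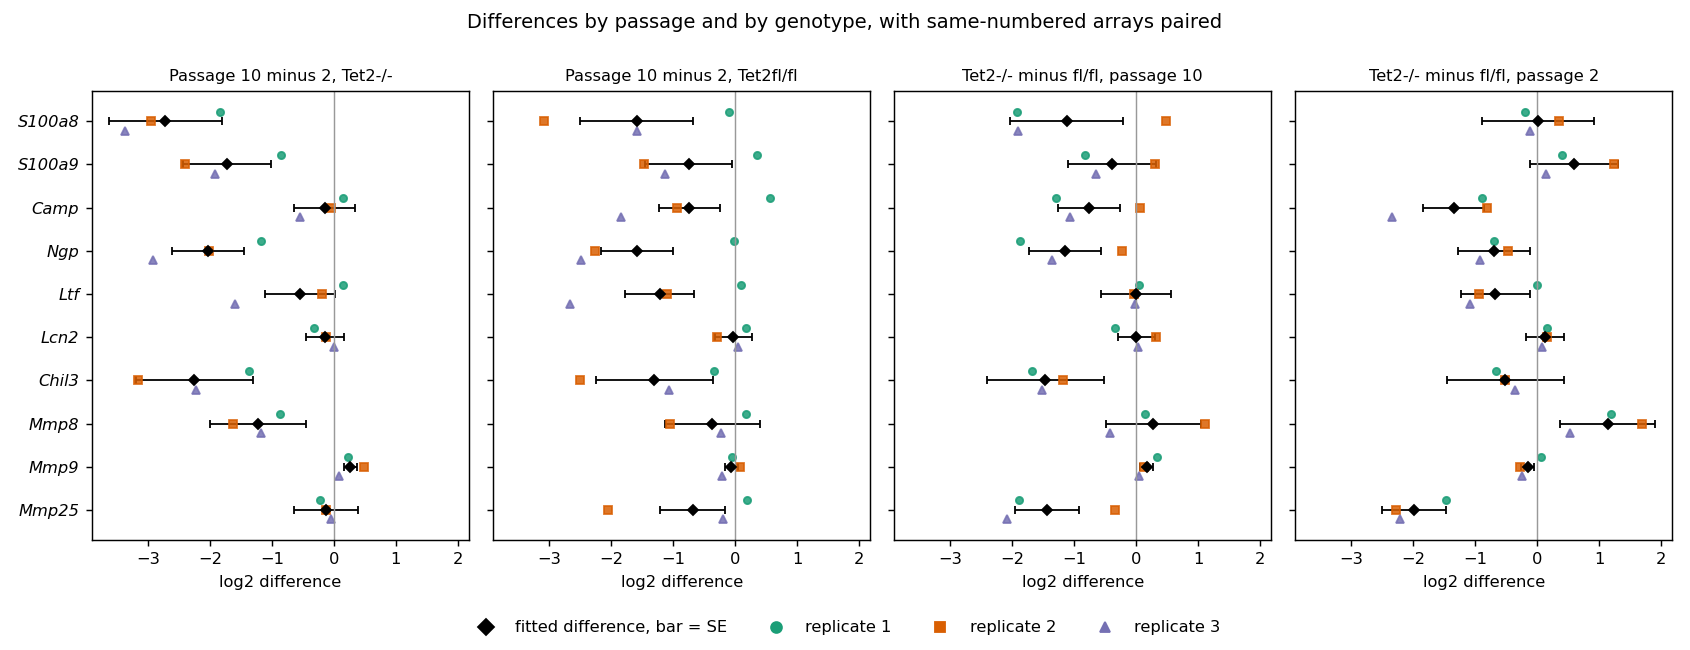
Log2 differences (x axis) of the 10 genes (y axis) by passage in each genotype and by genotype at each passage. Diamonds are fitted differences with their SE, and coloured points are same-numbered arrays subtracted from each other. In Tet2-/- cells the passage differences of S100a8, S100a9, Ngp, Chil3 and Mmp8 lie below 0 for all 3 replicate numbers, and Mmp25 lies below 0 for all 3 in both genotype panels.

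Between the genotypes, Mmp25 was the member that passed, lower in Tet2-/- cells. Mmp25 encodes leukolysin (MT6-MMP), a matrix metalloproteinase that a lipid anchor holds at the neutrophil membrane and granules. It read 5.35, 5.48 and 6.14 in Tet2-/- cells at passage 10, against 7.24, 5.82 and 8.23 in Tet2fl/fl cells. Replicate 2 of the Tet2fl/fl cells, the array that stood apart, lay within the Tet2-/- range and the other 2 above it. At passage 2 it read 5.57, 5.60 and 6.20 in Tet2-/- cells, against 7.05, 7.87 and 8.41 in Tet2fl/fl cells, with no overlap. Most of the Tet2-/- values lay near or below the array medians of 5.57 to 5.68. No call of detection was used, so the size of the Mmp25 difference is uncertain.

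The Mmp25 difference was -1.43 ± 0.52 at passage 10 (adjusted p = 0.338, and 0.0844 with the block) and -1.99 ± 0.52 at passage 2 (adjusted p = 0.213, and 0.0531 with the block). Averaged over both passages, Mmp25 fell by 1.71 on the log2 scale (SE 0.366), a 3.28-fold lower signal in Tet2-/- cells (adjusted p = 0.0424, and 0.00721 with the block), and it was lower in 6 of 6 same-numbered pairs. Without the block the call ended when any of 10 of the 12 arrays was left out (adjusted p = 0.0535 to 0.110); it stayed without replicate 1 of Tet2fl/fl passage 2 (adjusted p = 0.0454) or replicate 2 of Tet2fl/fl passage 10 (adjusted p = 0.0117). With the block it passed without any 1 array (adjusted p = 0.000439 to 0.026). With the block and without replicate 2 of Tet2fl/fl passage 10, Mmp25 also passed at each passage on its own (adjusted p = 0.00719 at the later and 0.00493 at the earlier one), and Chil3 passed for the genotype average. Camp passed for that average without replicate 1 of Tet2fl/fl passage 2. These fits, with the block and 1 array left out, were chosen after the data were seen. Replicate 2 of Tet2fl/fl passage 10 is the Tet2fl/fl array whose Mmp25 value lay within the Tet2-/- range. With all arrays Mmp25 passed at neither passage on its own.

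Camp encodes cathelicidin, the precursor of an antimicrobial peptide of specific granules. Its values were 4.78, 4.49 and 4.46 in Tet2-/- cells at passage 10, against 6.07, 4.42 and 5.52 in Tet2fl/fl cells. At passage 2 they were 4.63, 4.54 and 5.01 in Tet2-/- cells, against 5.51, 5.35 and 7.35 in Tet2fl/fl cells. All 6 Tet2-/- arrays lay between 4.46 and 5.01, while 5 of the 6 Tet2fl/fl arrays lay above them. The difference did not pass at passage 10 (-0.76 ± 0.49, adjusted p = 0.664, and 0.458 with the block), at passage 2 (-1.35 ± 0.49, adjusted p = 0.405, and 0.197 with the block) or on average (-1.05 ± 0.35, adjusted p = 0.158, and 0.0698 with the block).

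Chil3 and Ngp were lower in Tet2-/- cells in 6 of 6 same-numbered pairs, which held for 8.53% of all genes. Neither passed: the average difference was -0.99 ± 0.67 for Chil3 (adjusted p = 0.521, and 0.0647 with the block) and -0.93 ± 0.41 for Ngp (adjusted p = 0.293, and 0.141 with the block). Mmp8 had the opposite sign, 0.71 ± 0.54 on average, with 5 of 6 pairs higher in Tet2-/- cells (adjusted p = 0.585, and 0.107 with the block). The averages of S100a8 (-0.55 ± 0.64), S100a9 (0.10 ± 0.50), Ltf (-0.34 ± 0.40), Lcn2 (0.07 ± 0.21) and Mmp9 (0.01 ± 0.07) were all within 1 SE of 0, with adjusted p between 0.747 and 0.963 without the block.

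At passage 10 limma's test for genotype passed 0 of 10 members without the block (1 unadjusted, against 10.6% of genes), where 0.225% of genes passed, and 0 with it (3 unadjusted, against 14.5%), where 1.31% passed. At passage 2 it passed 0 of 10 without the block (2 unadjusted, against 9.95% of genes), where 0.00593% of genes passed, and 0 with it (3 unadjusted, against 13.4%), where 0.409% passed. For the average 1 of 10 passed, as lower, in both fits. In the fit without a block 3 members were under 0.05 unadjusted, against 16.1% of genes, and 1.72% of genes passed, 1.06% as lower. With the block 5 were under it, against 20.4%, and 5.41% passed, 3.25% as lower. Groups without overlap were found at passage 2 for Camp and Mmp25, both lower, against 8.17% of genes, and at passage 10 for no member, against 16.4% of genes in either direction. The median member difference was -0.57 at passage 10 and -0.33 at passage 2, beside -0.01 and -0.00 for all genes.

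Whether the genotype difference changed with passage was tested as an interaction. Without the block 0 of 10 members passed by limma's test (1 unadjusted, Mmp9, against 3.22% of genes), where 0% of genes passed, and with the block 0 (0 unadjusted, against 4.97%), where 0.00593% passed. The interaction was -1.13 ± 1.28 for S100a8, -0.95 ± 1.34 for Chil3 and 0.55 ± 0.73 for Mmp25, each with an adjusted p of 0.999 without the block. For S100a9, Chil3 and Mmp8 it was negative in 3 of 3 replicate numbers (13.9% of genes), and for Ltf and Mmp9 positive in 3 of 3 (12.4% of genes). The passage differences that passed in Tet2-/- cells are therefore not shown to differ from those in Tet2fl/fl cells.

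Ordered by mean, 7 of the 10 genes were lowest in Tet2-/- cells at passage 10, and 9 were highest in 1 of the passage 2 groups. The gap to the next group above was only 0.0003 for Ltf, 0.15 for Camp and 0.13 for Mmp25. The share over all genes was not computed, so these counts describe the order only. S100a8 averaged 7.21 ± 0.81 in Tet2-/- cells at passage 10 and 8.33 ± 2.17 in Tet2fl/fl cells at passage 10, against 9.93 ± 0.78 in Tet2-/- cells and 9.91 ± 0.99 in Tet2fl/fl cells at passage 2 (SD, n = 3 each). Chil3 averaged 7.15 ± 1.53 in Tet2-/- cells and 8.61 ± 1.75 in Tet2fl/fl cells at passage 10, against 9.40 ± 1.10 in Tet2-/- cells and 9.91 ± 0.98 in Tet2fl/fl cells at passage 2. Mmp25 ordered by genotype instead, with 5.66 ± 0.43 and 5.79 ± 0.35 in Tet2-/- cells at passage 10 and passage 2, against 7.09 ± 1.21 and 7.78 ± 0.69 in Tet2fl/fl cells. For every gene, groups next to each other in the order of means overlapped.

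The late granule genes varied more between arrays of one group than most genes did. The within-group SD lay at or above the 96.4th percentile of all genes for 9 of the 10, the exception being Mmp9 at the 36.8th. The median SD was 0.826 for the 10 genes and 0.145 for all genes. Replicate 2 was the lowest of its group in 28 of the 40 combinations of gene and group, and replicate 3 the highest in 26. Differences between replicate numbers held 64.6% of the within-group variance in the median member, against 32.3% in the median gene. They held 90.5% for Lcn2, 86.3% for Chil3 and 85.5% for Mmp8. Part of any such share arises without a replicate effect, since replicate numbers lower the residual degrees of freedom from 8 to 6. At passage 2 replicate 3 was highest for 9 members in Tet2-/- cells and for 10 in Tet2fl/fl cells, whereas at passage 10 replicate 1 was highest for 7 and 5. What distinguished the replicate numbers is not given in the sources used here.

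**Figure D3:**
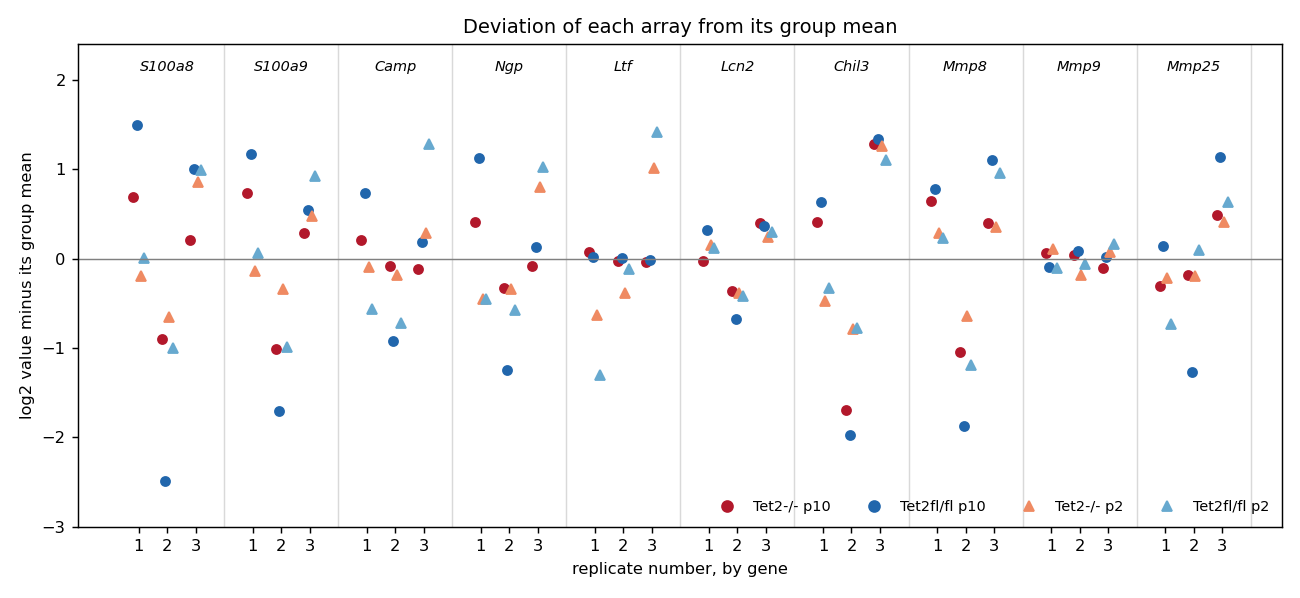
Deviation of each array's log2 value from its group mean (y axis), by gene and replicate number (x axis), with the 4 groups in colour. Replicate 2 lies below 0 in all 4 groups for S100a8, S100a9, Camp, Ngp, Lcn2, Chil3 and Mmp8. Mmp9 stays close to 0 in every group.

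The genes varied together across the arrays to different degrees. S100a8 and S100a9, which lie close together on chromosome 3, followed each other most closely (Pearson r = 0.951 and Spearman rho = 0.909 over 12 arrays; r = 0.977 after group means were removed). S100a8 also ran with Ngp (Pearson r = 0.931 and Spearman rho = 0.93) and Chil3 (Pearson r = 0.924 and Spearman rho = 0.916), and S100a9 with Mmp8 (Pearson r = 0.908 and Spearman rho = 0.853). Camp ran with Mmp25 (Pearson r = 0.827 and Spearman rho = 0.748). Mmp8 and Mmp25, the collagenase and leukolysin, were nearly unrelated over the 12 arrays (Pearson r = 0.104 and Spearman rho = 0.0839), while within groups r was 0.668. With the mean of the other 9 members, r was highest for S100a8 (0.942) and Chil3 (0.940) and lowest for Mmp9 (-0.188). These values describe arrays that share replicate numbers and are not independent, so no p-value is given.

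Among all other tested genes with a regular name, those most like the mean of the 10 members over the 12 arrays were Map3k15 (r = 0.987), Atrn (0.969), Rgcc (0.968), Il12a (0.950), Lrg1 (0.950), Mgam (0.949), Tbc1d4 (0.949) and Asap1 (0.945). Lrg1 encodes a secreted glycoprotein stored in neutrophil granules. Its passage average was -0.74 ± 0.30 (adjusted p = 0.148, and 0.00926 with the block) and its genotype average -0.66 ± 0.30 (adjusted p = 0.315, and 0.023 with the block). The 8 were chosen for following the members over these same arrays, so their own passage and genotype differences, Lrg1's included, were largely set by that choice and support nothing further.

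Of 18 other late granule and secreted neutrophil genes tested, 1 rose with passage on average and 0 fell without the block: Ptx3, a pattern-recognition protein of specific granules (0.32 ± 0.08, adjusted p = 0.0305). All 12 Ptx3 values, 4.76 to 5.36, lay below the array medians of 5.57 to 5.68, and no call of detection was used. With the block Ceacam1 (-0.52 ± 0.19, adjusted p = 0.117, and 0.0267 with the block), Lrg1 and Fcnb, a ficolin (-0.73 ± 0.27, adjusted p = 0.12, and 0.041 with the block), passed as lower too. By genotype 0 of 18 passed limma's test without the block (3 unadjusted), and with it Ceacam1, a granule adhesion molecule (-0.75 ± 0.19, adjusted p = 0.0771, and 0.0123 with the block), and Lrg1 were lower in Tet2-/- cells. Cd177 differed by -0.73 ± 0.27 for genotype (adjusted p = 0.21, and 0.0523 with the block) and Itgb2, the β2 integrin subunit, by 0.35 ± 0.13 for passage (adjusted p = 0.107, and 0.0538 with the block). The list's median was -0.15 for passage and -0.13 for genotype, beside 0.04 and -0.00 for all genes. For this list and those below, the unadjusted share of all genes was 26.8% for passage and 16.1% for genotype on average. With the block these shares were 31.5% and 20.4%.

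Of the 5 measured subunits of the NADPH oxidase, which makes the oxidative burst, Cyba rose with passage (0.25 ± 0.06, adjusted p = 0.0379) and none passed for genotype by limma's test (0 unadjusted, 1 with the block). Rac2 differed by 0.13 ± 0.05 for passage (adjusted p = 0.106, and 0.103 with the block) and Ncf1 by 0.27 ± 0.12 for genotype (adjusted p = 0.315, and 0.181 with the block). Primary granule genes numbered 10, all measured, and none passed limma's test without the block for passage (2 unadjusted) or genotype (2 unadjusted). Elane, neutrophil elastase, read 10.03, 8.92 and 10.07 in Tet2-/- cells at passage 10, against 11.33, 10.89 and 11.86 at passage 2, and 11.63, 8.27 and 10.70 in Tet2fl/fl cells at passage 10, against 11.87, 10.85 and 12.03 at passage 2. It was lower on average over genotypes with the block (-1.53 ± 0.49, adjusted p = 0.0794, and 0.0113 with the block). Prtn3, proteinase 3, differed by -0.73 ± 0.31 (adjusted p = 0.164, and 0.0536 with the block), and by genotype Ctsc by 0.16 ± 0.06 (adjusted p = 0.208, and 0.0774 with the block) and Ms4a3 by 0.28 ± 0.12 (adjusted p = 0.271, and 0.18 with the block). The median passage difference was -0.84 for the 10 late granule genes and -0.12 for the 10 primary granule genes; the difference between the lists was not tested.

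Among 14 tested surface and cytosolic genes of maturing neutrophils, C5ar1, the receptor for complement C5a, and Mrgpra2a were lower in Tet2-/- cells (-0.90 ± 0.14, adjusted p = 0.0136, and -0.39 ± 0.08, adjusted p = 0.0412). C5ar1 read 4.88, 5.01 and 5.38 in Tet2-/- cells at passage 10, against 5.58, 5.94 and 6.47 in Tet2fl/fl cells, and 5.45, 5.64 and 5.42 in Tet2-/- cells at passage 2, against 6.17, 6.49 and 6.55 in Tet2fl/fl cells. The groups did not overlap at either passage. The Tet2-/- values of C5ar1, 4.88 to 5.64, lay near or below the array medians of 5.57 to 5.68. No call of detection was used, so the size of the C5ar1 difference is uncertain. With the block Mcemp1 (-0.54 ± 0.16, adjusted p = 0.0335) was also lower, and Il1r2, the decoy receptor for IL-1 (1.13 ± 0.36, adjusted p = 0.0364), and Padi4 (0.28 ± 0.08, adjusted p = 0.0246) were higher. With passage Padi4, which citrullinates histones in neutrophils (0.38 ± 0.08), Mrgpra2a (0.35 ± 0.08) and Selplg, the P-selectin ligand (0.24 ± 0.06), rose (adjusted p = 0.0254, 0.0327 and 0.0317). With the block Stfa2l1 (-1.44 ± 0.56), Ifitm6 (-1.02 ± 0.41), Trem3 (-0.98 ± 0.29) and C5ar1 (-0.41 ± 0.14) were lower at passage 10 (adjusted p = 0.0123 to 0.0389).

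**Figure D4:**
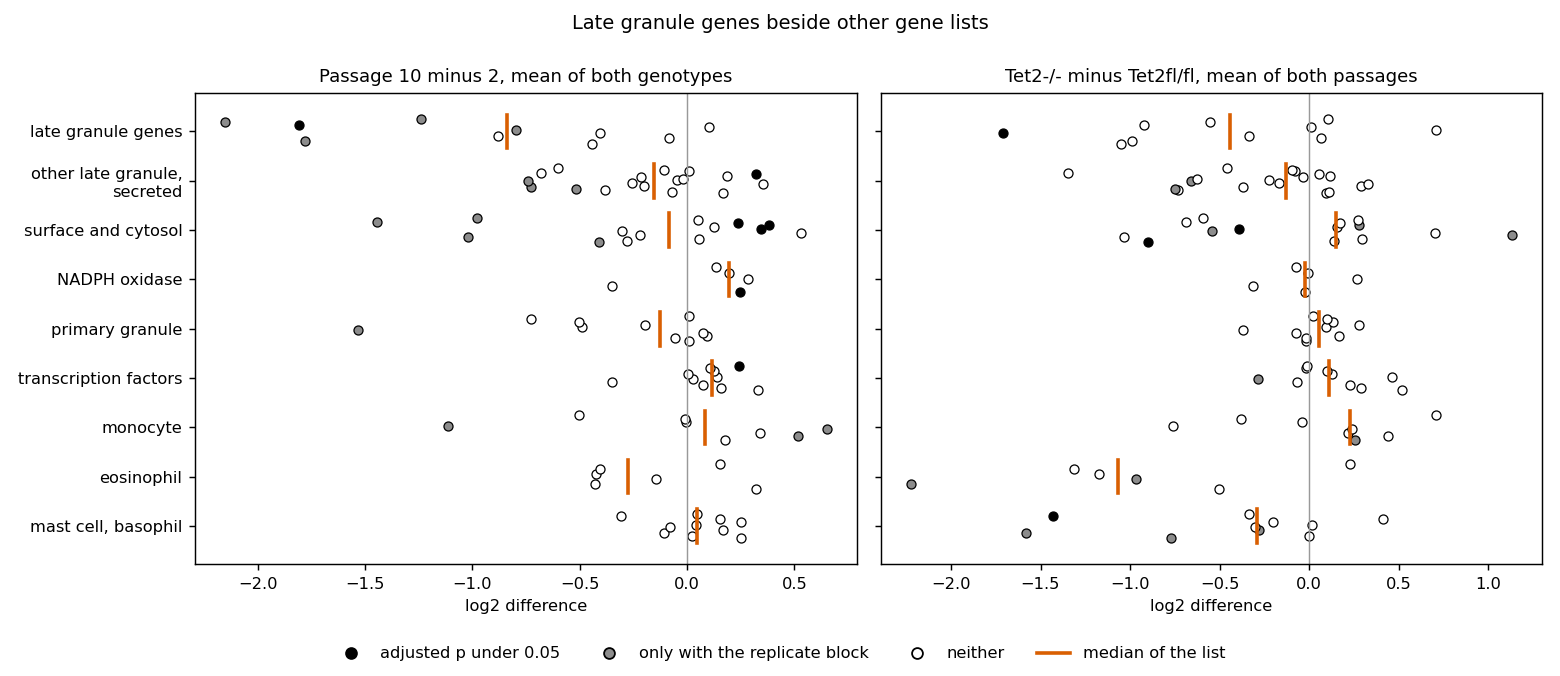
Log2 differences (x axis) by passage and by genotype, each averaged over the other factor, for the tested genes of 9 lists (y axis). Points are genes, filled black where the adjusted p was under 0.05 without the block and grey where only with it, open where neither; bars are list medians. The late granule genes have a median of -0.84 for passage and -0.44 for genotype.

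Of 10 transcription factors of granulocytes, limma's test passed none for genotype without the block (5 unadjusted), and Stat3, which carries the G-CSF signal, rose with passage (0.24 ± 0.06, adjusted p = 0.0298). Cebpa differed by 0.33 ± 0.16 for passage (adjusted p = 0.2, and 0.15 with the block) and by 0.52 ± 0.16 for genotype (adjusted p = 0.119, and 0.0696 with the block), and Irf8 by 0.46 ± 0.13 for genotype (adjusted p = 0.109, and 0.0595 with the block). Gfi1, a repressor needed for neutrophil differentiation, was lower in Tet2-/- cells with the block (-0.29 ± 0.10, adjusted p = 0.19, and 0.0319 with the block). Cebpe averaged a passage difference of -0.35 ± 0.29 (adjusted p = 0.462, and 0.256 with the block). Of the 8 measured receptors and inhibitors of the granule proteins, limma's test passed none for passage (1 unadjusted, 2 with the block) or genotype (0 unadjusted in both fits) on average. The nearest were Tlr4, a receptor for calprotectin (-0.40 ± 0.17 for passage, adjusted p = 0.164, and 0.117 with the block, and -0.22 ± 0.17 for genotype, adjusted p = 0.577, and 0.478 with the block), and Lrp1 (0.12 ± 0.07, adjusted p = 0.259, and 0.225 with the block, and 0.08 ± 0.07, adjusted p = 0.597, and 0.534 with the block).

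Of 13 tested relatives of the members in the S100, chitinase-like and metalloproteinase families, Mmp27 was higher in Tet2-/- cells on average (0.91 ± 0.13, adjusted p = 0.00785) and at passage 10 (1.24 ± 0.18, adjusted p = 0.0199). It also rose with passage in Tet2-/- cells (1.02 ± 0.18, adjusted p = 0.0272) and on average (0.70 ± 0.13, adjusted p = 0.0161). For genotype Mmp27 and Mmp25 thus had opposite signs. With the block S100a13 (-0.26 ± 0.06, adjusted p = 0.0609, and 0.0404 with the block) and S100a1 (-0.23 ± 0.10, adjusted p = 0.292, and 0.0401 with the block) were lower and Mmp19 was higher (0.30 ± 0.12, adjusted p = 0.259, and 0.0247 with the block) in Tet2-/- cells, and Mmp19 was higher at passage 10 (0.34 ± 0.12, adjusted p = 0.109, and 0.00952 with the block).

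Markers of other cell types were read beside these genes. Of 10 mast cell and basophil genes Tpsab1, a mast cell tryptase, was lower in Tet2-/- cells (-1.43 ± 0.22, adjusted p = 0.0124), and with the block so were Fcer1a (-1.58 ± 0.35, adjusted p = 0.0505, and 0.0213 with the block), Cma1 (-0.77 ± 0.21) and Gata2 (-0.28 ± 0.09). The mean level of that list was 10.86 to 11.24 over the 3 arrays in Tet2-/- cells, against 11.41 to 11.85 in Tet2fl/fl cells, at passage 10, and 11.02 to 11.38 in Tet2-/- cells, against 11.41 to 11.57 in Tet2fl/fl cells, at passage 2. Of 6 measured eosinophil genes limma's test passed none for genotype without the block (5 unadjusted, against 16.1% of genes). With it Epx, eosinophil peroxidase (-2.22 ± 0.50, adjusted p = 0.0501, and 0.0169 with the block), and Il5ra (-0.97 ± 0.26, adjusted p = 0.0822, and 0.0412 with the block) were lower in Tet2-/- cells. The eosinophil list averaged 7.08 to 8.58 over the 3 arrays in Tet2-/- cells, against 7.24 to 9.17 in Tet2fl/fl cells, at passage 10, and 7.41 to 7.60 in Tet2-/- cells, against 8.87 to 9.13 in Tet2fl/fl cells, at passage 2.

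Of 8 measured monocyte and macrophage genes limma's test passed none without the block for passage (3 unadjusted) or genotype (2 unadjusted). With it Cd68 (0.65 ± 0.20, adjusted p = 0.0177) and Ccr2 (0.52 ± 0.19, adjusted p = 0.0235) were higher and Clec7a (-1.11 ± 0.41, adjusted p = 0.0323) lower at passage 10, and Adgre1 was higher in Tet2-/- cells (0.26 ± 0.09, adjusted p = 0.0419). The monocyte list averaged 8.44 to 8.99 over the 3 arrays in Tet2-/- cells, against 8.18 to 9.23 in Tet2fl/fl cells, at passage 10, and 8.73 to 8.88 in Tet2-/- cells, against 8.48 to 8.73 in Tet2fl/fl cells, at passage 2. Kit, on which the starting marrow had been enriched and which was not part of the later sort, was lower in Tet2-/- cells (-0.82 ± 0.15, adjusted p = 0.022). Of 7 lymphoid genes Pax5 rose with passage (0.34 ± 0.09, adjusted p = 0.0475). The 5 dendritic and the 5 erythroid and megakaryocyte genes held no call for genotype by limma's test without the block (2 and 1 unadjusted), and with it Flt3 (0.27 ± 0.08), H2-Ab1 (1.02 ± 0.50) and Itga2b (0.35 ± 0.13) were higher in Tet2-/- cells. The arrays give no zeros, so no marker could be called absent, and the part of these cells in the late granule results was not tested.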

How the data were processed

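Per the labels' protocols, 100 ng of RNA from each of 12 samples was hybridised, each to its own GeneChip Mouse Gene ST array. The deposited values are log2 signals that the authors made with RMA in Affymetrix Power Tools, per the submitters' processing notes; their versions were not given in the sources used here. These values were used as deposited, and raw intensities were not used here, so detection above background could not be called.

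Of 41345 rows, 28941 reached the 30th percentile of row means (log2 4.70); 23521 rows had 1 gene symbol, 1814 several and 16010 none, and 23328 symbols were matched by gene ID to a RefSeq table of GRCm38.p6. One row was kept per gene, that of highest mean, which left 16860 genes. Using limma 3.58.1 (lmFit and eBayes) under R 4.3.3, the 4 group means were estimated from the 12 arrays together (8 residual degrees of freedom). Two-sided p-values were adjusted by Benjamini and Hochberg, over the whole table for every contrast, and 0.05 was the threshold. Values after ± are standard errors of the fit without the block unless given as SD. This holds also where only an adjusted p with the block stands beside them. Each group had 3 arrays, and this number limits the precision. Contrasts were genotype at each passage and averaged, passage in each genotype and averaged, and the interaction.

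Replicate numbers were checked on deviations from group means: r was 0.201 to 0.517 in the 18 same-numbered pairs of arrays and -0.369 to 0.0532 in the 36 others, so the numbers pair the samples. The pairing comes from the data, and a fit with the number as a fixed block (6 residual degrees of freedom) stands beside the main one. The named genes are the 10 members, Itgam, Ly6g, Fcgr3 and Tet2, the largest changes that passed and the 2 smallest p-values per list in both averaged contrasts, and the 8 genes most like the members; genes called only with the block, and Cebpe, were named after their values were seen. Members and lists were chosen with earlier results of these data known. The fit without the block was tested on simulated data with independent noise, without differences shared by replicate numbers. The fit with the block was not tested in that way. Alternatives were another scaling, filter, variance model or row rule, array weights, a fixed or random block, fewer arrays, and leaving out each array or replicate number.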

Additional observations from a re-analysis of the deposited data

How the results depend on the processing

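Counts of members that passed and median differences were recomputed in 554 combinations of result and alternative. Of these, 489 were labelled the same, 26 lost calls, 38 gained them and 1 median moved. Same meant within 1.5 times for a count, and within 0.74 for a median, the within-group SD of the members' mean. That SD exceeds the medians of the genotype contrasts and of the interaction. Such a median could reach 0 or change sign and still be labelled the same, as could a count that stayed at 0. The 489 are therefore no measure of how stable these results are. Of 277 medians, none of them tested, 4 took the other sign: genotype at passage 2 (0.01 under a filter at the 50th percentile and 0.04 without replicate 3 of Tet2fl/fl passage 2, against -0.33) and the interaction (0.07 without and 0.10 with the block, without replicate 1 of Tet2fl/fl passage 10, against -0.29). Without a filter and with limma's trend and robust options the genotype average had 0 members passing instead of 1 (Mmp25). Passage in Tet2-/- cells had 0 members passing, but 1 with array weights or a random replicate block and 5 with the fixed replicate block; its median of -0.88 became -1.73 under a filter at the 50th percentile, where 7 members were tested and Camp, Ltf and Mmp9 were left out. The passage average had 1, but 2 with a random replicate block and 5 with the fixed replicate block. Leaving out 1 array or 1 replicate number, without or with the block, gave 0 to 2 members for the genotype average, 0 to 1 for genotype at passage 2 and at passage 10, 0 to 5 for passage in Tet2-/- cells, 0 to 1 for passage in Tet2fl/fl cells, 0 to 6 for the passage average and 0 for the interaction. Leaving out replicate number 1, 2 or 3 in all groups ended both calls made without the block (adjusted p = 0.147 to 0.187 for Mmp25 by genotype and 0.0814 to 0.27 for Ngp by passage). With the block, Mmp25 was lost without number 3 (adjusted p = 0.115) and Ngp without number 2 or 3 (adjusted p = 0.0932 and 0.138); without number 2 Chil3 alone passed for the passage average. With the block and 1 array left out, 4 members passed for passage in Tet2-/- cells without any 1 Tet2fl/fl array of passage 2, and 4 for the passage average without 7 of the 12 arrays. Fits that combine the block with a left-out array or number were chosen after seeing the data. The cause of these changes was not tested, beyond the smaller number of arrays or genes in some fits. The block changed no other call of the late granule genes than those given. Signal near the array median limits what can be read for Camp, Ltf and Mmp9. The same holds for Mmp25 in Tet2-/- cells (5.35 to 6.20) and for the lowest passage 10 values of S100a9, Ngp and Chil3.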
